A study of Mus musculus with 4 samples.

Results

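The CD4 T cells of mouse back skin described here are 147 cells among 28607 cells kept from 4 single-cell RNA libraries. They were chosen on their raw counts of unique molecular identifiers (UMIs, each standing for 1 captured transcript). A member had at least 1 Cd4 UMI, at least 2 UMIs summed over Cd3e, Cd3d and Cd3g, and no UMI of Cd8a or Cd8b1. It also had at most 4 UMIs of Il17a plus Il17f, at most 1 of Il13 plus Il5, at most 2 of C1qa, C1qb and C1qc together, and at most 2 of Trdc. Levels of these genes were set by the choice and are given only as descriptions.

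CD4 T cells recognise peptides on class II molecules and act mainly by directing other cells. Helper subsets are distinguished by their cytokines, interferon gamma for type 1, interleukins 4, 5 and 13 for type 2 and interleukins 17 and 22 for type 17. Regulatory T cells, which depend on the transcription factor Foxp3, restrain immune responses and are abundant in healthy skin. CD226 (DNAM-1) is an activating receptor that binds CD155 and CD112 on other cells, including tumour cells.

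The study compared Cd226-/- with WT mice, both on the BALB/c background, in a chemical skin carcinogenesis protocol. Shaved back skin received 25 µg of the mutagen DMBA and then 5 µg of the promoter TPA in 3 weekly applications, and cells were isolated 3 weeks after treatment. The Cd226-/- DMBA/TPA library and the WT DMBA/TPA library each held skin cells pooled from 3 mice, with sorted CD45+ and CD45- cells mixed in equal parts. The naive CD45+ library held CD45+ cells of untreated mice and the naive CD45- library their CD45- cells, and each pooled cells of WT and Cd226-/- mice in equal parts, so the naive cells carry no genotype. Ages were not given in the sources used here. Each group is 1 library, so no difference below has a replicate check or a p-value. Intervals are exact 95% intervals (Clopper-Pearson for shares, Poisson for levels, conditional binomial for ratios) and cover counting error only. Because sorted fractions were mixed, a share of cells in a library is not a share of the tissue.

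The Cd226-/- library gave 66 members, 8.28% of its 797 cells with at least 2 Cd3 UMIs (interval 6.46 to 10.4). The WT library gave 63 members, 11.4% of 552 such cells (interval 8.88 to 14.4). The naive CD45+ library gave 18 members, 7.11% of 253 (interval 4.27 to 11.0). None of the 158 Cd3 cells of the naive CD45- library was a member, which allows a share of up to 2.31%. The choice sat close to the detection limit of Cd4. Exactly 1 Cd4 UMI was found in 40 Cd226-/- members, 30 WT members and 5 naive members, while 154 Cd226-/- cells, 138 WT cells and 73 naive CD45+ cells met every other condition and had none. Between 6 and 21 cell barcodes occurred in both libraries of a pair, and no barcode was a member in both.

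The label was checked against other T-cell transcripts. A constant-region transcript of the alpha-beta T-cell receptor (Trac, Trbc1 or Trbc2) was found in 65 of 66 Cd226-/- members, 63 of 63 WT members and 18 of 18 naive members. Icos had a UMI in 60 of 66 Cd226-/- members (90.9%), 57 of 63 WT members (90.5%) and 14 of 18 naive members (77.8%). In fibroblasts (at least 5 Col1a1 UMIs, none of Ptprc), which should lack it, Icos had a UMI in 0.745% of 2817 Cd226-/- cells, 0.421% of 4039 WT cells and none of 152 naive CD45+ cells. The members' median depth was 8346 UMIs in the Cd226-/- library, 7924 in the WT library and 7213 in the naive CD45+ library, against 12671, 10336 and 15404 UMIs for the fibroblasts of the same libraries in that order. Members therefore carried T-cell transcripts far above the level found in fibroblasts.

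Many members also carried transcripts of another cell type. UMIs of the marker lists of 11 other cell types, among them macrophages and monocytes, dendritic and Langerhans cells, neutrophils and fibroblasts, made up 0.876% to 6.57% of the UMIs of 36 Cd226-/- members, 0.704% to 10.1% of 34 WT members and 5.58% to 6.06% of 2 naive members. The rest lay at or below 0.442% in the Cd226-/- library, 0.480% in the WT library and 0.246% in the naive CD45+ library. Members under 0.6%, a threshold set after these values were seen, are called clean below (30 Cd226-/-, 29 WT and 16 naive), and the others mixed. Mixed members had a median of 12344 UMIs in the Cd226-/- library and 10354 in the WT library. Clean members had a median of 3177 UMIs in the Cd226-/- library, 4159 in the WT library and 6644 in the naive CD45+ library. Shares of clean cells with a UMI, and UMIs held by single cells, are given below without adjustment for this depth. Mixed members held 495298 of the 604000 UMIs of Cd226-/- members, 432291 of the 595471 UMIs of WT members and 36831 of the 184301 UMIs of naive members. Only the macrophage and monocyte, dendritic and Langerhans, fibroblast and neutrophil lists were compared for the most UMIs in a mixed member. In the Cd226-/- library the macrophage and monocyte list led in 15 mixed members and the dendritic and Langerhans list in 14. The fibroblast list led in 6 there and the neutrophil list in 1. In the WT library these numbers were 17, 13, 3 and 1, and both naive mixed members were led by the dendritic and Langerhans list. At least 50 UMIs in more than 1 of these lists were found in 12 mixed Cd226-/- members and 14 mixed WT members. The doublet caller Scrublet marked 6 mixed members of the Cd226-/- library, 2 of the WT library and none of the naive CD45+ library, and no clean member. The comparisons between libraries are therefore mostly given for both sets, and the set is named where only one is used. How far the mixed cells set the values over all members was not tested beyond that.

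**Figure D1:**
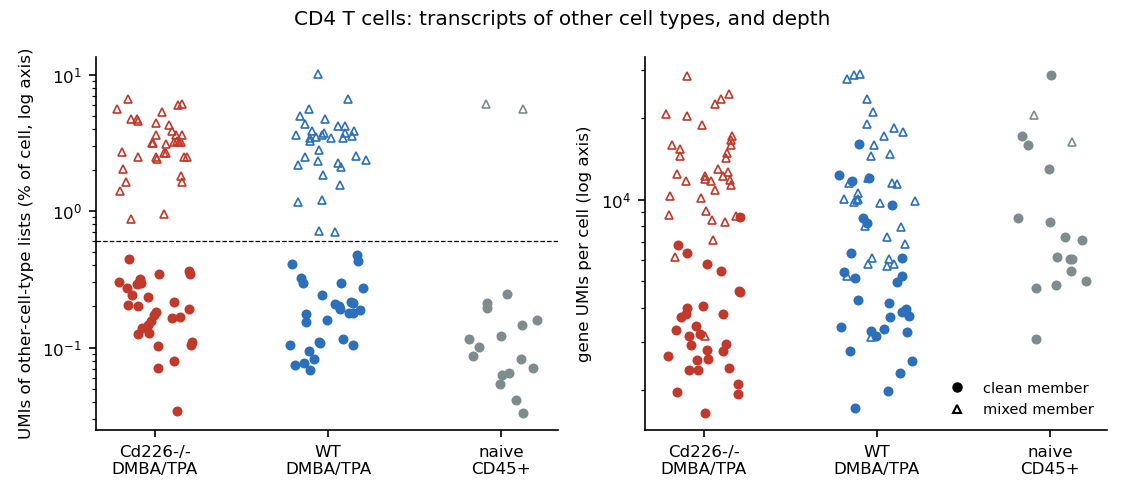
Each point is 1 CD4 T cell. The left panel gives the percent of its UMIs in the lists of other cell types (log axis, dashed line at 0.6%) and the right panel its total gene UMIs (log axis). Filled circles are clean and open triangles mixed members; the Cd226-/- and WT libraries hold 36 and 34 mixed members and the naive CD45+ library 2, and no member lies between 0.480% and 0.704%.

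The deleted gene was checked first. Over all members Cd226 had 5 UMIs in 4 of 66 Cd226-/- members, 22 UMIs in 18 of 63 WT members and 1 UMI in 1 of 18 naive members. Its level was 8.28 UMIs per 1000000 (CPM) in the Cd226-/- library and 36.9 CPM in the WT library, 4.46-fold lower (interval 1.65 to 15.1). The assay counts 3' ends, so UMIs from a disrupted gene can remain. The antibody tag for the DNAM-1 protein, which reads the product directly, had a median of 2 counts on Cd226-/- members, 46 on WT members and 10 on naive members. Fibroblasts of the same libraries had medians of 2 in the Cd226-/- library, 16 in the WT library and 10 in the naive CD45+ library. The tag on Cd226-/- members thus lay at the fibroblast level of its library and that on WT members above it. Naive members also lay at the fibroblast level.

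Foxp3, the lineage factor of regulatory T cells (chromosome X, 7573644 to 7595245, plus strand, mm10), had a UMI in fewer of the members from treated skin than of those from naive skin. The share was 7 of 66 Cd226-/- members (10.6%, interval 4.37 to 20.6), 7 of 63 WT members (11.1%, 4.59 to 21.6) and 10 of 18 naive members (55.6%, 30.8 to 78.5). In fibroblasts a Foxp3 UMI was found in none of 2817 Cd226-/- cells, 0.0248% of WT cells and none of 152 naive CD45+ cells. The intervals of both treated libraries lay below that of the naive library. With every member thinned to 1000 UMIs, a Foxp3 UMI was expected in 3.77% of Cd226-/- members, 2.30% of WT members and 13.5% of naive members. Thinning drew on all UMIs of a member, including those of other cell types in mixed members. It therefore did not equalise T-cell UMIs and cannot decide whether the shares differ at equal T-cell depth. Among clean members the counts were 5 of 30 in Cd226-/- (16.7%, 5.64 to 34.7), 1 of 29 in WT (3.45%, 0.0873 to 17.8) and 8 of 16 in naive skin (interval 24.7 to 75.3). The Cd226-/- interval then overlapped those of both other libraries. These clean shares were not adjusted for depth, which had a median of 3177, 4159 and 6644 UMIs in the same order.

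The number of Foxp3 UMIs per cell was small throughout. The 5 clean Cd226-/- members held 4, 3, 3, 2 and 1, the clean WT member 3, and the 8 clean naive members 7, 4, 4, 3, 3, 1, 1 and 1. The 6 mixed WT members with Foxp3 held 11, 3, 1, 1, 1 and 1, so 18 of the 21 WT UMIs came from mixed cells. Ikzf2 (Helios), a transcription factor common in regulatory T cells, had 45 UMIs in Cd226-/- members, 46 in WT members and 134 in naive members, or 74.5, 77.2 and 727 CPM. Its level was 9.76-fold lower in Cd226-/- than in naive members (interval 6.91 to 14.0) and 9.41-fold lower in WT than in naive members (6.69 to 13.5). Over clean members it was 349.6 CPM in Cd226-/-, 30.6 CPM in WT and 759 CPM in naive skin, which put Cd226-/- 11.4-fold above WT (4.48 to 37.1). The 38 clean Cd226-/- UMIs were spread over 5 cells (12, 10, 9, 4 and 3), whereas the 5 clean WT UMIs sat in 1 cell.

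**Figure D2:**
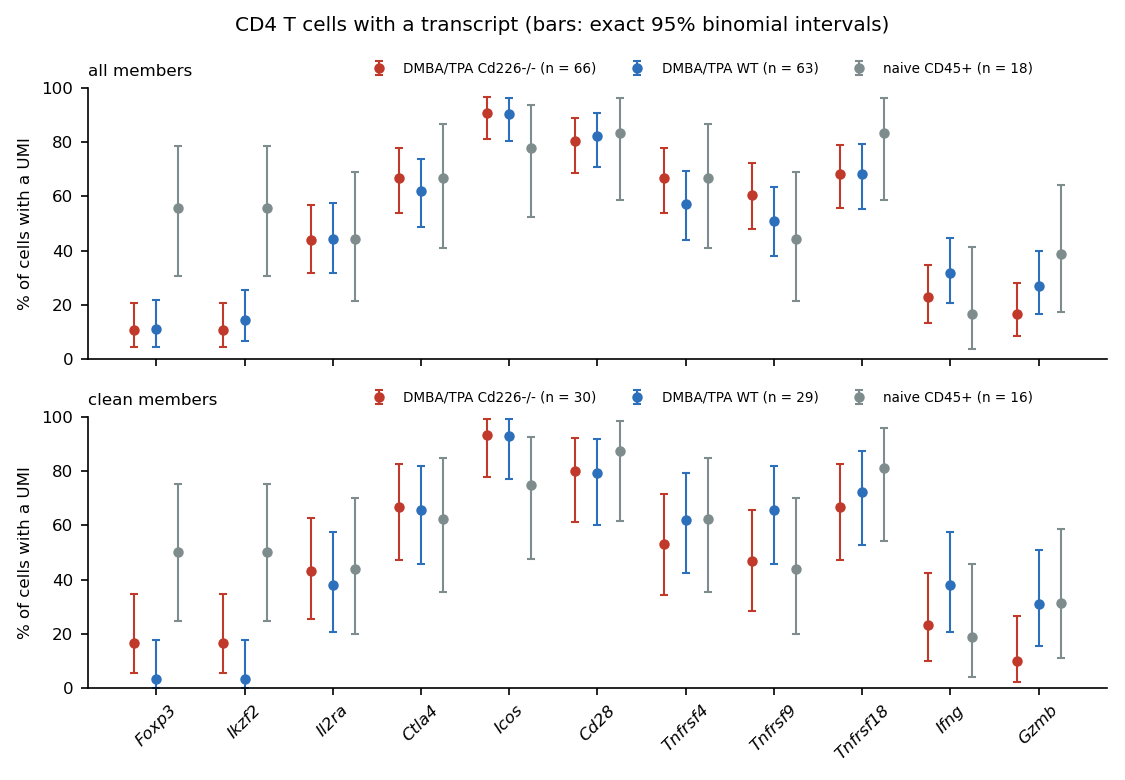
Percent of CD4 T cells with at least 1 UMI of each gene, for all members (top) and clean members (bottom), in the Cd226-/- DMBA/TPA, WT DMBA/TPA and naive CD45+ libraries; bars are exact 95% binomial intervals. Foxp3 stood at 10.6%, 11.1% and 55.6% over all members, while Icos stood at 90.9%, 90.5% and 77.8%.

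The regulatory list of 32 genes was read against all genes with at least 20 UMIs over the pair of libraries, counting a gene as past the fold when its ratio exceeded 1.5. Of 21 list genes measured for WT over naive, 1 was past the fold higher and 13 lower, against 24.0% and 17.9% of 4778 genes, with a median log2 ratio of -1.11 (all genes 0.04). For Cd226-/- over naive 1 of 22 was higher and 14 lower, against 26.7% and 18.4% of 4889 genes, with a median of -1.0 (all genes 0.02). Both comparisons share the naive library, and over all members the list was lower in both. A list of T-cell receptor and signalling genes was lower there too, with medians of -0.410 for WT and -0.599 for Cd226-/- over naive. Over clean members the medians of this T-cell receptor list were 0.346 and 0.305 in the same order. Levels over all members, above and below, also count UMIs of other cell types in mixed members. How far this set the ratios over naive was not tested. Scaling by trimmed means moved all ratios up by 0.15 for WT over naive and by 0.14 for Cd226-/- over naive (log2), so that 1418 genes were past the fold higher and 629 lower for WT over naive, against 1146 and 855 by total UMIs, and 1521 and 670 for Cd226-/- over naive, against 1306 and 900. The regulatory median stayed below 0 with either scaling. Clean members gave 1 of 16 higher and 9 lower for WT over naive, against 18.0% and 19.6% of 2207 genes, and 4 of 19 higher and 6 lower for Cd226-/- over naive, against 20.1% and 18.4% of 1903 genes. The clean Cd226-/- median was -0.08, and the 6 lower genes there were Ikzf2, Tnfrsf1b, Areg, Klrg1, Gata3 and Penk.

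Between the treated libraries the regulatory list differed little over all members, with 3 of 20 genes past the fold higher in Cd226-/- and 1 lower, against 14.1% and 11.1% of 6104 genes. Over clean members 7 of 14 were higher and 1 lower, against 18.9% and 13.3% of 1964 genes, with a median log2 ratio of 0.52 (all genes 0.00). Scaling by trimmed means moved all clean ratios of this pair by -0.11, and scaling by medians of ratios by -0.13 (log2). The 7 were Ikzf2, Il2ra, Ctla4, Tnfrsf9, Itgae, Areg and Batf. A Foxp3 UMI was found in 5 of 30 clean Cd226-/- and 1 of 29 clean WT members. Mixed members with one numbered 2 in Cd226-/- and 6 in WT. How far this uneven split set the clean ratios of the pair was not tested. Il2ra, the interleukin 2 receptor alpha chain, had 49 UMIs in clean Cd226-/- members, 26 in clean WT members and 41 in clean naive members, 2.83-fold higher in Cd226-/- than in WT (1.72 to 4.74) and 1.37-fold over all members (0.991 to 1.91). Areg, the epidermal growth factor family ligand amphiregulin, had 32, 0 and 90 UMIs in clean Cd226-/-, WT and naive members. It was at least 16.0-fold higher in clean Cd226-/- than in clean WT members and at least 33.2-fold lower in clean WT than in clean naive members, with 3 counts over the group standing for 0. One clean Cd226-/- cell held 23 of its 32 UMIs, and 1 clean naive cell 43 of the 90. Itgae, the integrin chain CD103 that binds E-cadherin, was 2.14-fold higher in clean Cd226-/- than in clean WT members (1.03 to 4.59) but 1.56-fold lower over all members (1.00 to 2.47).

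Members with and without a Foxp3 UMI, clean and mixed together, were then set against each other inside each library. Foxp3 itself chose these cells, and the positive sets hold 7 Cd226-/-, 7 WT and 10 naive cells, of which 2, 6 and 2 were mixed. These were 2 of the 36 mixed Cd226-/- members, 6 of 34 in WT and 2 of 2 in naive skin. Mixed content therefore differed between the positive and negative cells of each library. Levels also count UMIs of other cell types in mixed cells, and how far this set the folds was not tested. Across all genes with at least 20 UMIs, 21.8% were past 1.5-fold higher and 25.2% lower in Foxp3 positive cells of the Cd226-/- library (4055 genes), 18.0% and 22.1% in the WT library (3939 genes), and 29.2% and 14.6% in the naive library (1324 genes). Ikzf2 was higher in the Foxp3 positive cells of each library, with 61.4-fold more in Foxp3 positive cells of the Cd226-/- library (24.2 to 199), 32.4-fold in WT (13.7 to 93.6) and 8.94-fold in naive skin (4.00 to 24.8). Only 5 of the 45 Cd226-/- UMIs, 6 of the 46 WT UMIs and 6 of the 134 naive UMIs lay outside Foxp3 positive cells.

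The checkpoint receptor Ctla4, which competes with Cd28 for its ligands, had smaller folds in treated skin, over clean and mixed members together. It was 1.76-fold higher in Foxp3 positive cells of the Cd226-/- library (1.20 to 2.51), 2.25-fold in WT (1.62 to 3.11) and 10.6-fold in naive skin (4.41 to 33.1). The tumour necrosis factor receptor Tnfrsf9 (4-1BB) gave 1.93-fold in Cd226-/- (1.28 to 2.85), 1.75-fold in WT (1.09 to 2.72) and 31.4-fold in naive skin (5.47 to 1258). Tnfrsf4 (OX40) gave 2.19-fold in Cd226-/- (1.39 to 3.37), 1.64-fold in WT (1.04 to 2.53) and 7.21-fold in naive skin (2.97 to 22.8). Every Foxp3 positive member had a Ctla4 UMI, but Ctla4 without Foxp3 was found in 37 of 66 Cd226-/- members (56.1%), 32 of 63 WT members (50.8%) and 2 of 18 naive members (11.1%). Il2ra without Foxp3 occurred in 25 of 66 Cd226-/- members (37.9%), 24 of 63 WT members (38.1%) and 1 of 18 naive members (5.56%). Transcripts that marked Foxp3 positive cells in naive skin were thus found in many Foxp3 negative cells of treated skin, where the absence of a Foxp3 UMI can also be a failure to capture it.

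Other genes were higher in Foxp3 positive cells of all 3 libraries. The interleukin 33 receptor Il1rl1 (ST2) was 6.72-fold higher in Cd226-/- (2.07 to 21.2), 7.30-fold in WT (2.74 to 20.6) and 5.03-fold in naive skin (0.744 to 215, an interval that included equality). Klrg1, an inhibitory receptor, had 6, 9 and 18 UMIs in the Foxp3 positive and 0, 1 and 0 in the Foxp3 negative cells of the Cd226-/-, WT and naive libraries. Genes lower in Foxp3 positive cells included the chemokine receptor Cxcr6, by 19.3-fold in Cd226-/- (3.41 to 766), 5.52-fold in WT (2.63 to 13.9) and 2.23-fold in naive skin (0.996 to 4.95, which also included equality). Cd40lg, the helper signal to antigen-presenting cells, was lower by 6.38-fold in Cd226-/- (1.09 to 257), 6.99-fold in WT (1.17 to 284) and 5.25-fold in naive skin (1.68 to 19.3). Ifng and Foxp3 shared 1 WT member and no member of the Cd226-/- or naive library.

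Among the costimulatory genes, Icos (chromosome 1, 60977927 to 61000320, plus strand) was carried by most members at every condition. It had 334 UMIs in Cd226-/- members, 372 in WT members and 126 in naive members, or 553, 625 and 684 CPM. The levels lay within 1.24-fold of each other over all members. Over clean members Icos was at 1417 CPM in Cd226-/- (1202 to 1659), 1079 CPM in WT (925 to 1250.2) and 746 CPM in naive skin (613 to 899). The intervals of both treated libraries lay above the naive one and overlapped each other. Its ratio was 1.90-fold for Cd226-/- over naive (1.48 to 2.45), 1.45-fold for WT over naive (1.13 to 1.85) and 1.31-fold for Cd226-/- over WT (1.05 to 1.64). Cd28, the main costimulatory receptor, differed by at most 1.18-fold between any pair of libraries in clean members, with 616, 613 and 522 CPM in Cd226-/-, WT and naive members. Over all members it was at 263, 381 and 429 CPM in the same order, 1.63-fold lower in Cd226-/- than in naive members (1.23 to 2.15) and 1.45-fold lower than in WT members (1.18 to 1.78).

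Ctla4, which neighbours both genes (chromosome 1, 60887000 to 60915832, plus strand), had 204 UMIs in 44 Cd226-/- members, 180 in 39 WT members and 131 in 12 naive members. Its share of positive cells was alike, at 66.7%, 61.9% and 66.7%. Its level was 338 CPM in Cd226-/- and 302 CPM in WT, against 711 CPM in naive members. Over clean members it was 1104 CPM in Cd226-/- (915 to 1320.0), 417 CPM in WT (324 to 528) and 746 CPM in naive skin (613 to 899), so that Cd226-/- was 2.65-fold above WT (1.95 to 3.62). Clean members with a Foxp3 UMI were 5 of 30 in Cd226-/- and 1 of 29 in WT. How far this set the clean ratios of Ctla4 and the genes below was not tested. The richest clean cells held 24, 13, 13, 10 and 10 UMIs in Cd226-/-, 11, 10, 7, 4 and 4 in WT, and 45, 20, 16, 10 and 7 in naive skin. Tnfrsf9 was 1.55-fold higher in clean Cd226-/- than in clean WT members (1.08 to 2.23) and Tnfrsf4 1.38-fold (0.937 to 2.02), whereas Tnfrsf18 (GITR) was level at 1.03-fold (0.665 to 1.57). Of 15 costimulatory genes measured in clean members for Cd226-/- over WT, 4 were past the fold higher (Tnfrsf9, Cd40lg, Slamf1 and Cd44) and none lower, with a median log2 ratio of 0.11, against 18.9% and 13.3% of all genes. Over all members 3 of 18 were higher and 3 lower (median -0.10), against 14.1% and 11.1%.

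Ifng, the type 1 cytokine interferon gamma (chromosome 10, 118441046 to 118445892, plus strand), was lower in Cd226-/- than in WT members. It had 29 UMIs in 15 of 66 Cd226-/- members, 119 UMIs in 20 of 63 WT members and 11 UMIs in 3 of 18 naive members, or 48.0, 199.8 and 59.7 CPM. The Cd226-/- level was 4.16-fold below WT (2.75 to 6.48) over all members and 4.97-fold (2.64 to 10.3) over clean members. Clean Cd226-/- cells held 5, 1, 1, 1, 1, 1 and 1 UMIs, clean WT cells 19, 17, 15, 7, 7, 7, 4, 3, 1, 1 and 1, and clean naive cells 6, 3 and 2. More cells held a UMI in WT, and 6 clean WT cells held more than any clean Cd226-/- cell. These counts per cell were not adjusted for depth, which had a median of 3177 UMIs in clean Cd226-/- and 4159 in clean WT members. The share of positive clean cells was 23.3% in Cd226-/- and 37.9% in WT, and their intervals overlapped. Fibroblasts with an Ifng UMI made up 0.142% in the Cd226-/- library, 0.0990% in the WT library and none of 152 in the naive CD45+ library.

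Gzmb, the cytotoxic protease granzyme B, was also lower in Cd226-/- than in WT members. It had 7 UMIs in 3 clean Cd226-/- members (4, 2 and 1), 117 in 9 clean WT members (58, 28, 15, 6, 3, 2, 2, 2 and 1) and 33 in 5 clean naive members (16, 8, 6, 2 and 1). The Cd226-/- level was 11.1-fold below WT (5.24 to 28.3), but 1 WT cell held 49.6% of the WT UMIs. Over all members the ratio was 2.21-fold lower (1.66 to 2.98), with 1 mixed Cd226-/- cell holding 47 of the 71 UMIs there. Nkg7, a cytotoxic granule protein, was found in 15 of 30 clean Cd226-/- members, 24 of 29 clean WT members and 7 of 16 clean naive members, and its level was 1.43-fold lower in Cd226-/- than in WT (1.08 to 1.90). Tbx21, the transcription factor T-bet that directs the type 1 programme, was sparse, with 5 UMIs in clean Cd226-/- members, 4 in clean WT members and 10 in clean naive members.

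**Figure D3:**
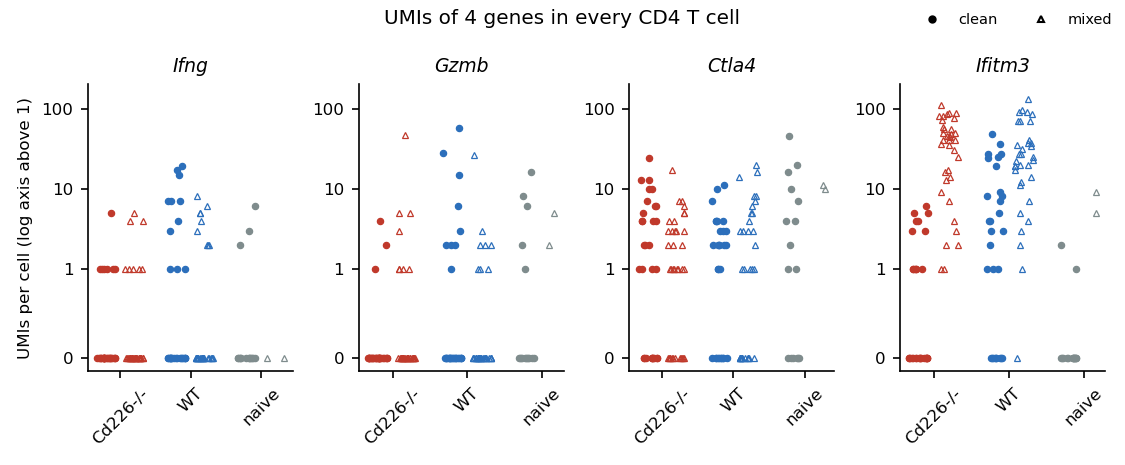
UMIs of Ifng, Gzmb, Ctla4 and Ifitm3 in every CD4 T cell of the Cd226-/- DMBA/TPA, WT DMBA/TPA and naive CD45+ libraries (log axis above 1). Filled circles are clean and open triangles mixed members. Clean cells with 7 or more Ifng UMIs were all WT, and Ctla4 reached 24 UMIs in a clean Cd226-/- cell against 11 in a clean WT cell. Counts are not adjusted for the depth of each cell.

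Of 16 type 1 helper genes measured for Cd226-/- over WT, 7 were past the fold lower (Ifng, Stat4, Il18rap, Ccl5, Nkg7, Xcl1 and Gzmb) and 1 higher, the chemokine Ccl4, with a median log2 ratio of -0.48, against 11.1% lower and 14.1% higher of all genes. Clean members gave 3 of 12 lower (Ifng, Cxcr3 and Gzmb) and 2 higher, among them Ccl4, with a median of -0.19, against 13.3% lower and 18.9% higher of all genes, so that the share of higher genes was near that of all genes. In clean Cd226-/- members 128 of the 131 Ccl4 UMIs lay in 1 cell. For WT over naive 11 of 16 were higher and 2 lower over all members (median 0.99), against 24.0% and 17.9% of all genes. Over clean members 10 of 13 were higher and none lower (median 1.59), against 18.0% and 19.6%. The 10 were Ifng, Stat4, Il18r1, Il18rap, Tnf, Ccl4, Nkg7, Cxcr6, Runx3 and Gzmb. For Cd226-/- over naive 5 of 15 were higher and 4 lower over all members (median 0.09), against 26.7% and 18.4% of all genes, and 7 of 10 were higher and 1 lower over clean members (median 1.19), against 20.1% and 18.4%. Il18r1, a chain of the interleukin 18 receptor, was higher than naive in both treated libraries. Its level was 193 CPM in clean Cd226-/-, 233 CPM in clean WT and 74.6 CPM in clean naive members, 2.59-fold (1.19 to 5.95) and 3.12-fold (1.56 to 6.77) above naive in Cd226-/- and WT. A Foxp3 UMI was found in 5 of 30 clean Cd226-/-, 1 of 29 clean WT and 8 of 16 clean naive members. Ratios over naive, here and below, thus compare groups with differing Foxp3 positive shares, as do the clean ratios of Cd226-/- over WT. How far these shares set the ratios was not tested.

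Transcripts of the other helper programmes were scarce. Il17a and Il17f were limited by the choice of cells and Il22 was not. Il22 had 30 UMIs in 5 Cd226-/- members, 19 of them in 1 cell, 1 UMI in WT members and none in naive members, and clean members held 1 of the 30. Il4 had 4 UMIs in Cd226-/-, 2 in WT and 1 in naive members. Gata3, the type 2 factor that regulatory cells of tissues also express, was at 92.0 CPM in clean Cd226-/- members, 172 CPM in clean WT members and 231 CPM in clean naive members, with overlapping intervals of Cd226-/- and WT (44.1 to 169 and 114 to 248). Cxcr5, the follicular helper homing receptor, had no UMI in any member. Pdcd1, the inhibitory receptor PD-1, was 2.52-fold lower in Cd226-/- than in WT members (1.72 to 3.76) over all members but 1.12-fold lower over clean members (0.666 to 1.92).

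Genes with the strongest ratios between Cd226-/- and WT were ranked by how far their interval stayed from a ratio of 1. In clean members the higher ones were Ikzf2, Uhrf2, Avpi1, Sgip1, Ctla4, Fth1, Hilpda, Fosb, Il2ra and Ccnd2. Clean members with a Foxp3 UMI were 5 of 30 in Cd226-/- and 1 of 29 in WT, and their part in this ranking was not tested. Over all members Ikzf2 had 45 UMIs in Cd226-/- and 46 in WT. Uhrf2, a ubiquitin ligase that binds modified DNA, had 45 UMIs in 18 Cd226-/- cells and 11 in 9 WT cells, 6.14-fold higher (3.13 to 13.2) and 1.73-fold higher over all members (1.24 to 2.44). Fth1, the ferritin heavy chain that stores iron, was 2.10-fold higher (1.91 to 2.31), and Hilpda, a lipid droplet protein induced by low oxygen, 2.66-fold (1.78 to 4.03). Ccnd2, the G1 cyclin D2, was 2.63-fold higher (1.72 to 4.07). These 4 genes were also higher over all members, by 1.37-fold to 1.73-fold.

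The lower ones in clean Cd226-/- members were Gzmb, Ifitm3, Pycard, Ifng, Gstp3, Klf2, Rasgrp2, Cd48, S1pr4 and Nt5c. Ifitm3, an antiviral membrane protein, had 36 UMIs in Cd226-/-, with at most 6 per cell, 262 in WT, with up to 48 per cell, and 3 in naive members, a 4.85-fold lower level in Cd226-/- than in WT (3.41 to 7.07). Over all members it was level at 1.02-fold (0.948 to 1.10), and mixed cells of both treated libraries held up to 110 and 131 UMIs. Pycard, the inflammasome adaptor ASC, was 7.19-fold lower in Cd226-/- than in WT (2.90 to 23.0). Klf2, a transcription factor that drives genes of recirculation, had 7 UMIs in 3 clean Cd226-/- cells and 42 in 10 clean WT cells. Klf2 had 49 UMIs in 6 clean naive cells, of which 1 held 26. The level of Klf2 was 4.00-fold lower in Cd226-/- than in WT (1.78 to 10.5). Its target S1pr1, the receptor for exit from tissue, had 0 UMIs in clean Cd226-/- members, 13 in clean WT members and 11 in clean naive members, at least 2.89-fold lower in Cd226-/- than in WT. S1pr4, a related receptor, was 4.66-fold lower (1.63 to 18.3) and Rasgrp2, an activator of the Rap GTPase, 5.00-fold (1.76 to 19.5). Over all members Klf2 was at 1.11-fold lower (0.846 to 1.46), and a Klf2 UMI was found in 39.8% of Cd226-/- and 54.4% of WT fibroblasts.

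**Figure D4:**
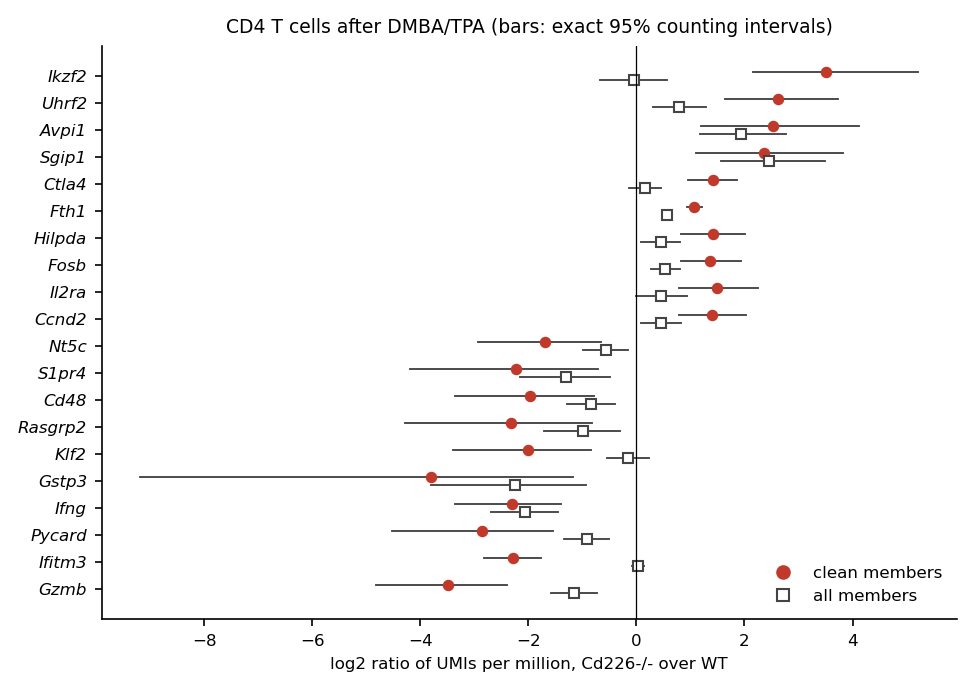
log2 ratio of CPM, Cd226-/- over WT after DMBA/TPA, for the 20 genes with the strongest ratios in clean members; circles are clean and squares all members, and bars are exact 95% counting intervals. Ikzf2 stood highest and Gzmb, Ifitm3, Pycard and Ifng among the lowest in clean members, while Ikzf2, Ifitm3 and Klf2 lay near 0 over all members.

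Over all members the strongest ratios between Cd226-/- and WT were those of genes with few UMIs in one library, led by Mrgprg (64 UMIs in Cd226-/-, 1 in WT), Aldh1a3 (38, 0), Adm (99, 4), Fndc1 (64, 3), Vegfd (27, 0), Ptx3 (66, 4) and Plpp3 (225, 26). The lower ones were led by Cilp (0 UMIs in Cd226-/-, 20 in WT), Dct (1, 21), Igfbp7 (13, 73) and Ifng. Fibroblast-list UMIs stood at 4853 in Cd226-/- members and 3383 in WT members, of which 90 and 128 lay in clean members. Mixed members led by the fibroblast list numbered 6 in Cd226-/- and 3 in WT, and their part in these ratios was not tested.

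Against naive skin, clean members of both treated libraries had higher levels of several of the same genes. Genes at 0 in the 16 clean naive members included the granzyme inhibitor Serpinb9 (21 UMIs in Cd226-/-, 49 in WT), its relative Serpinb6b (38, 88), the inhibitory receptor Klrc1 (20, 26) and the lymph node homing receptor Ccr7 (38, 21). The level of Serpinb6b was at least 17.2-fold above naive in Cd226-/- and at least 26.5-fold in WT, and that of Ccr7 at least 17.2-fold and 6.33-fold. Ifitm2 was 17.2-fold above naive in Cd226-/- (9.96 to 32.0) and 30.9-fold in WT (18.2 to 56.9). Ramp3, an adrenomedullin receptor subunit, was 17.6-fold above naive in Cd226-/- (6.49 to 67.1) and 10.4-fold in WT (3.79 to 39.8). Rgs1, a brake on chemokine receptor signalling found in resident T cells, was at 3579 CPM in Cd226-/-, 2163 CPM in WT and 468 CPM in naive clean members. Over all members it was still 3.16-fold above naive in Cd226-/- (2.51 to 4.04) and 2.97-fold in WT (2.35 to 3.79).

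The genes furthest below naive skin were ranked in the same way. In WT clean members Areg, Ikzf2, Ramp1, Bst2, Foxp3, Arl5a, Hsp90aa1, Ahsa1, Hsph1 and Rtp4 led. In Cd226-/- clean members Ahsa1, Ifi27l2a, Rtp4, Stmn1, Hmgb2, Dusp1, Ptma, Ppil1, Hsp90aa1 and Flna led. Ahsa1, Rtp4 and Hsp90aa1 stood in both. The chaperone Hsp90aa1 had 51 UMIs in Cd226-/-, 63 in WT and 165 in naive clean members, 2.38-fold (1.73 to 3.33) and 2.90-fold (2.16 to 3.94) below naive in Cd226-/- and WT. Its cochaperone Ahsa1 had 3, 8 and 33. Isg15, the interferon-induced ubiquitin-like protein, had 9, 7 and 62 UMIs, but 1 naive cell held 44 of the 62. Bst2 (tetherin), also induced by interferon, was found in 6 of 30 clean Cd226-/- members, 5 of 29 clean WT members and 9 of 16 clean naive members, with at most 9 UMIs in a cell. It was 3.93-fold (1.62 to 11.5) and 7.08-fold (2.74 to 23.3) below naive in Cd226-/- and WT. Mixed members held 165 of the 171 Bst2 UMIs in Cd226-/-, 86 of 91 in WT and 14 of 46 in naive skin. Over all members the ratios were 1.13-fold higher in Cd226-/- (0.815 to 1.61) and 1.63-fold lower in WT (1.12 to 2.35).

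Among the remaining lists the cell cycle genes stood lowest. For Cd226-/- over WT 9 of 19 were past the fold lower and none higher (median log2 ratio -0.58), against 11.1% and 14.1% of all genes. Over clean members 7 of 12 were lower and none higher (median -0.84), against 13.3% and 18.9%. For WT over naive 17 of 20 were lower and 1 higher (median -1.25), against 17.9% and 24.0% of all genes, and for Cd226-/- over naive 20 of 21 were lower and 1 higher (median -1.71), against 18.4% and 26.7%. Clean members gave 8 of 18 lower and 1 higher for WT over naive (median -0.54), against 19.6% and 18.0%, and 10 of 13 lower and none higher for Cd226-/- over naive (median -1.24), against 18.4% and 20.1%. Mki67, the proliferation marker, had a UMI in 10 of 66 Cd226-/- members (15.2%), 19 of 63 WT members (30.2%) and 6 of 18 naive members (33.3%). Its clean UMIs came from 5 cells in Cd226-/- (15 UMIs), 7 in WT (23) and 6 in naive skin (48, of which 25 in 1 cell). Hmgb2, a chromatin protein abundant in dividing cells, was 1.85-fold lower in clean Cd226-/- than in clean WT members (1.46 to 2.38).

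Among tissue residence genes 7 of 11 were past the fold higher and none lower for Cd226-/- over naive in clean members (median 0.92), and 7 of 11 higher and 2 lower for WT over naive (median 1.06). All genes of the clean members gave 20.1% higher and 18.4% lower for Cd226-/- over naive and 18.0% and 19.6% for WT over naive, and the clean counts of the next lists are read against the same shares. Over all members 6 of 16 tissue residence genes were higher and 2 lower for Cd226-/- over naive (median 0.26), and 8 of 15 higher and none lower for WT over naive (median 0.62), against 26.7% and 18.4%, and 24.0% and 17.9%, of all genes. The 7 in clean members were the same for both, namely Cd69, Cxcr6, Rgs1, Runx3, Bhlhe40, Nr4a1 and Vps37b, and both share the naive library. Of the immediate early genes, which respond to stimulation and to tissue dissociation, 12 of 19 were higher and 2 lower for Cd226-/- over naive in clean members, and 8 of 20 higher and 2 lower for WT over naive. Over all members 9 of 22 were higher for Cd226-/- over naive and 10 of 22 for WT over naive, and none lower. Egr1 was at 919.9 CPM in Cd226-/-, 1238 CPM in WT and 108 CPM in naive clean members. Of the interferon response genes none of 16 was higher and 7 were lower in clean members for Cd226-/- over naive (median -0.44), and likewise for WT over naive (median -0.52). Over all members 1 of 23 was higher and 13 lower for Cd226-/- over naive (median -0.76), and 2 of 24 higher and 9 lower for WT over naive (median -0.48).

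**Figure D5:**
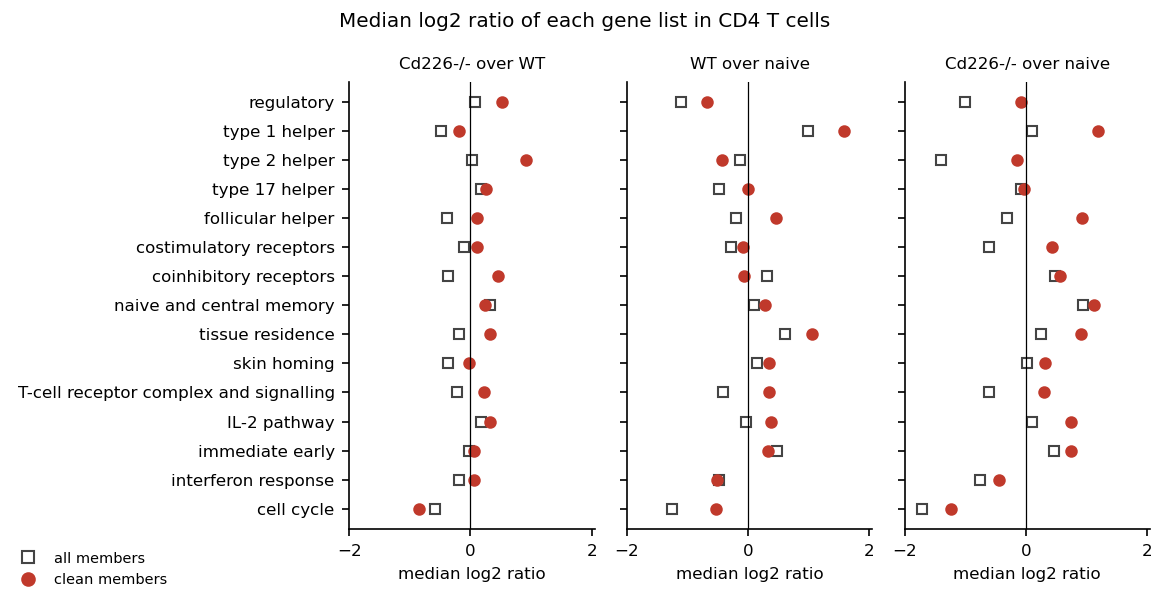
Median log2 ratio of CPM over the measured genes of 15 gene lists, for Cd226-/- over WT, WT over naive CD45+ and Cd226-/- over naive CD45+; squares are all members and circles clean members. The cell cycle list lies below 0 in all 3 panels, the type 1 helper list reaches 1.59 for WT over naive in clean members, and several lists change sides between the 2 sets of cells.

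For comparison, CD8 T cells were taken as Cd3 cells with at least 1 Cd8a or Cd8b1 UMI and no Cd4 UMI. Only clean ones were used (70 of 98 Cd226-/-, 70 of 101 WT and 18 of 22 naive). How far leaving out the other CD8 T cells set the contrasts with CD4 cells was not tested. Several genes differed past 1.5-fold in the same direction in all 3 libraries, and with 3 libraries no test was made. Tnfrsf4 was higher in clean CD4 than in clean CD8 T cells, 5.50-fold in Cd226-/- (3.37 to 9.21), 12.9-fold in WT (6.55 to 28.3) and 58.4-fold in naive skin (10.2 to 2335). Maf, a transcription factor of cytokine and regulatory programmes, was higher by 9.03-fold in Cd226-/- (4.81 to 18.2), 11.0-fold in WT (5.10 to 27.2) and 2.45-fold in naive skin (1.52 to 4.08). Cd5, an inhibitor of receptor signalling, was higher by 4.00-fold, 3.76-fold and 5.35-fold in the same order. Nkg7 was lower in CD4 cells by 3.40-fold in Cd226-/- (2.67 to 4.37), 2.31-fold in WT (1.95 to 2.75) and 3.55-fold in naive skin (2.52 to 5.07), and Itgae by 2.32-fold, 3.56-fold and 3.04-fold.

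Ifng and Gzmb set CD4 and CD8 cells apart to different degrees in the 3 libraries. Ifng was at 101 CPM in CD4 and 298 CPM in CD8 cells of the Cd226-/- library, 503 CPM and 584 CPM in the WT library, and 74.6 CPM and 568 CPM in the naive CD45+ library. In WT the CD4 level was within counting error of the CD8 level (1.16-fold lower, 0.896 to 1.52), and in Cd226-/- it was 2.95-fold lower (1.56 to 6.14). Gzmb was at 64.4 CPM in CD4 and 747 CPM in CD8 cells of the Cd226-/- library and at 717 CPM and 1531 CPM in the WT library. In the naive CD45+ library it was at 224 CPM in CD4 and 135 CPM in CD8 cells, 1.66-fold higher in CD4 cells with an interval that included equality (0.864 to 3.36). Foxp3 had 13, 3 and 24 UMIs in clean CD4 cells and 1, 9 and 1 in clean CD8 cells of the Cd226-/-, WT and naive libraries.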

How the data were processed

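The values used are the deposited counts, whole numbers of UMIs for each gene and antibody tag in each cell, which the authors made from 10x Genomics 3' v3.1 libraries with Cell Ranger 3.1.0 and the mm10 genome, per the submitters' processing notes. Gene names are those of the matrices, and gene positions are from the GENCODE annotation of mm10. Barcodes with at least 500 genes, at least 1000 gene UMIs and at most 10% mitochondrial UMIs were kept (6682 Cd226-/-, 7212 WT, 3513 naive CD45+ and 11200 naive CD45- cells). Library totals were 71245703, 72606822, 42043869 and 81406730 gene UMIs in that order.

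UMIs were summed over members of a library and scaled to UMIs per 1000000 (CPM). With 1 library per group no test was made. Ratios carry exact conditional binomial intervals, and a gene is called past the fold at 1.5-fold among genes with at least 20 UMIs over both libraries. A library with 0 UMIs of a gene was set to 3 counts over the group. Reads were already collapsed to UMIs by the authors' pipeline, so intervals of levels and ratios refer to captured molecules. They leave out differences between cells and between mice.

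Named genes were the 10 highest and 10 lowest ratios per pair of libraries, ranked by how far the lower limit of the fold lies from 1, past 1.5-fold under total, trimmed-mean and per-cell scaling, with no cell holding most of the higher library's UMIs, and without mitochondrial, ribosomal, haemoglobin, receptor variable, sex-linked and other-cell-type genes. Members of the 15 biology lists are named besides. The members, the lists and the named-gene rule were chosen with earlier results of these data known, and the clean set after the values were seen. Doublets were kept, and Scrublet (expected rate 0.06, in scanpy 1.11.5) served as an alternative. It marked 161 Cd226-/-, 170 WT, 9 naive CD45+ and 602 naive CD45- cells, and its share of 0.256% in the naive CD45+ library was low. Other alternatives were trimmed-mean scaling (edgeR 4.0.16), median-of-ratios scaling (DESeq2 1.42.0), equal weight per cell, other UMI minimums, 2 or more Cd4 UMIs, at most 5% mitochondrial UMIs, and leaving out the richest cell of each gene or the tenth of members highest in other-cell UMIs. The ratio procedure was tested on simulated data. Values of some single genes are not reported here, though they count within their lists.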

Additional observations from a re-analysis of the deposited data

Results flagged for a closer look

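Cells outside the chosen set carried the regulatory factor Foxp3. Cells that met every condition but had no Cd4 UMI included 11 of 154 with a Foxp3 UMI in the Cd226-/- library (7.14%, exact binomial interval 3.62 to 12.4), 6 of 138 in the WT library (4.35%, 1.61 to 9.22) and 6 of 73 in the naive CD45+ library (8.22%, 3.08 to 17). In the naive CD45- library, sorted for cells without CD45, none of 157 such cells had one, which allows a share of up to 2.32%. Fibroblasts had a Foxp3 UMI in 0 of 2817 Cd226-/- and 0.0248% of 4039 WT cells. The median depth of the cells without a Cd4 UMI was 8278 UMIs in Cd226-/-, 8872 in WT, 4999 in naive CD45+ and 9004 in naive CD45- cells. Among the same cells, a Trac UMI was found in 65 Cd226-/-, 59 WT, 25 naive CD45+ and 1 naive CD45- cells, so that they include cells with an alpha-beta receptor transcript. Ctla4 had a UMI in 38 of these Cd226-/- cells, 40 WT cells and 4 naive CD45+ cells. Whether they are CD4 T cells whose Cd4 transcript was not captured was not tested.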

How the results depend on the processing

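The report's limits are set by few cells, by 1 library per group and by mixed cells. Requiring 2 Cd4 UMIs lowered the members' share of Cd3 cells to 3.26% in Cd226-/- and 5.98% in WT, and clean members made up 3.76% and 5.25%. The Foxp3 share of clean WT members was 3.45%. Thinning, which drew on all UMIs of clean and mixed members, gave 3.77% in Cd226-/-, 2.30% in WT and 13.5% in naive skin. No paired analysis was possible because the labels give no replicate numbers and each group is 1 library.

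Counts of genes past 1.5-fold followed the UMI minimum. At 50 UMIs they were 290 higher and 213 lower for Cd226-/- over WT (861 and 679 at 20 UMIs), 480 and 298 for WT over naive (1146 and 855), and 546 and 357 for Cd226-/- over naive (1306 and 900). At 1 UMI they were 1994 and 1663, 2118 and 1916, and 2328 and 1959 in that order. With 2 Cd4 UMIs they were 531 higher for Cd226-/- over WT, 717 and 563 for WT over naive, and 685 and 560 for Cd226-/- over naive. Clean members gave 371 and 262, 397 and 433, and 383 and 350, of 1964, 2207 and 1903 genes. Without the richest cell of each gene 360 were lower for WT over naive and 402 for Cd226-/- over naive, with fewer UMIs in the small naive group by construction. For Cd226-/- over WT, 64 of the 861 higher genes could be measured in clean members and 51 remained past the fold, and 68 of 127 lower ones remained. Clean members gave 151 higher and 196 lower of 821 genes in Foxp3 positive cells of Cd226-/-. In WT they gave 262 and 117 of 1164 genes, from 1 positive cell.

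The number of lists with a median past 1.5-fold was 0 for Cd226-/- over WT by total UMIs. It was 1 with trimmed-mean scaling, at 1 UMI, and without the tenth highest in other-cell UMIs, and 2 at 5% mitochondrial UMIs and in clean members. For WT over naive it was 7 without the richest cells (4 with them). Of the list medians recomputed, 469 stayed within 1.5-fold of the reported value, 21 moved further and 5 that were past the fold changed sign, namely for Cd226-/- over naive the type 2 helper list (0.288 at 1 UMI, 0.0502 without the richest cells, 0.771 with 2 Cd4 UMIs), the costimulatory receptors (0.426 in clean members) and the T-cell receptor list (0.305 in clean members).

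Of the single genes' log2 ratios, 1087 stayed within their counting interval, 163 moved out of it and 18 that were past the fold changed sign. For Cd226-/- over WT, 2 Cd4 UMIs gave 0.156 for Igfbp7, -0.131 for Tnfrsf9 and -1.89 for Areg, and clean members gave 1.00 for Igfbp7, 1.10 for Itgae and 0.949 for Isg15. For WT over naive, clean members gave -1.47 for Cxcl2 and 0.0950 for S1pr1. For Cd226-/- over naive, clean members gave 0.697 for Il2ra, 0.566 for Ctla4, 0.396 for Tnfrsf9, 0.239 for Cd28 and 0.370 for Itgae, equal weight per cell gave 0.0202 for Il2ra and 0.107 for Ctla4, leaving out the richest cells gave 0.0999 for Tnfrsf9 and 0.139 for Klf2, and 2 Cd4 UMIs gave -0.261 for Pdcd1. The cause of these reversals was not tested.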
